A study of Mus musculus with 30 samples.

Results

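CP-775146 is a piperidine agonist of the nuclear receptor PPAR-alpha, known here only by its code name. The response of mouse liver to it after 24 h is described here across a whole expression array. It was read from 8 arrays of the 30 in the series, the 4 titled for CP-775146 at 24 h and the 4 titled for vehicle at the same time. All mice in the series were male C57Bl/6. The treated mice of this comparison received CP-775146 at 1 mg/kg per day and were sampled at 24 h, and the control mice received water, the vehicle, and were sampled at the same time. Used only as reference were mice given CP-868388 or CP-865520, also piperidine agonists, at the same dose for 24 h (4 arrays each). Mice given CP-775146 for 5 days (2 arrays) or vehicle for 5 days (4 arrays) served in the same way, and the 5-day groups of the other compounds (4 arrays each) entered the fit. No group carries a modified gene. The age of the mice is not given in the sources used here.

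PPAR-alpha is activated by fatty acids and by fibrate drugs, pairs with the retinoid X receptor, and binds DNA near its target genes. In mouse liver it is known for raising the enzymes of peroxisomal, mitochondrial and microsomal fatty acid oxidation, and its agonists enlarge the peroxisome population of hepatocytes. A probe set is the group of oligonucleotides that reads 1 transcript, and nothing used here ties probe set IDs to genes. The results are therefore given for probe sets, grouped by size, direction and brightness, with 4 of them by ID. The only genes named are those whose names stand in the IDs of the array's own control probe sets. For the same reason the tissue label was not checked against liver markers.

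The values are intensities on a linear scale that end at a floor of 50. The mean over all 12488 probe sets was 315.5 to 317.2 on the 8 arrays. Of the 12422 probe sets that are not controls, 5994 to 6197 stood above the floor on the CP-775146 arrays and 6260 to 6455 on the vehicle arrays. These ranges did not overlap (6115 ± 88.9 against 6388 ± 87.2, SD, n = 4 each, exact two-sided permutation p = 0.0286, the smallest that 4 against 4 allows, adjusted p = 0.0572 over 4 array measures). Beta-actin has control probe sets near both ends of its transcript, and their ratio is a sign of RNA integrity. On a log2 scale the 5'/3' ratio was also lower on all CP-775146 arrays (-0.80, -0.78, -0.80 and -0.76) than on the vehicle arrays (-0.63, -0.44, -0.64 and -0.71; exact permutation p = 0.0286, adjusted p = 0.0572). The same ratio for Gapdh overlapped between the groups (-0.06 to 0.11 against -0.07 to 0.16, exact permutation p = 0.914). That of pyruvate carboxylase overlapped too, but its mean was lower under CP-775146 (-1.63 ± 0.13 against -1.39 ± 0.16, SD, n = 4 each, exact permutation p = 0.0571, adjusted p = 0.0761). The part of RNA integrity in single changes was not tested. With these ratios as a covariate, 570 of the 586 rises and 952 of the 1006 falls reported next were still called.

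CP-775146 changed a broad set of liver transcripts within 24 h. Of 7963 probe sets tested, 586 rose and 1006 fell, which is 7.36% and 12.6% and together 20% of those tested (limma over all 30 arrays, Benjamini-Hochberg adjusted p under 0.05). Most changes were small. Between group means of intensity, 123 probe sets (1.54%) rose and 155 (1.95%) fell by at least 2-fold and were called, so 82.5% of the calls were under 2-fold. The median rise was 1.56-fold and the median fall 1.54-fold. At 4-fold or more, 23 rose and 13 fell. The response therefore held more falls than rises in number, but more rises than falls among the largest changes. A fall ends at the floor of 50 and a rise has no such bound, so the directions are not on equal terms at large folds. The 3 changes of at least 16-fold, 2 rises and 1 fall, are traced by ID below.

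The groups were well separated compared with the spread inside them. Over the 5156 probe sets that no array of the comparison put at the floor, the root mean square log2 difference between 2 arrays was 0.23 to 0.28 within CP-775146 and 0.22 to 0.29 within vehicle. Between a CP-775146 and a vehicle array it was 0.44 to 0.56. The 4 CP-775146 arrays lay wholly above the vehicle arrays in 721 of the 7963 probe sets (9.05%) and wholly below them in 1169 (14.7%). Among the calls, which the test picked for a difference, this held for 526 of the rises and 829 of the falls. Leaving out any 1 array used in these contrasts gave 1235 to 1627 calls, the lowest without CP-775146 replicate 1 at 24 h. Among the probe sets called, which these same arrays picked, each CP-775146 array was above the whole vehicle range in 565 to 569 of the 586 rising probe sets and below it in 885 to 918 of the 1006 falling ones. The median log2 difference from the vehicle mean ran from 0.54 to 0.61 for the rising sets across these arrays and from -0.54 to -0.46 for the falling ones. Replicate 1 stood at the far end of both ranges.

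Probe sets not called could also be bounded. Of 3854 that were above the floor on all 8 arrays and not called, 3798 (98.5%) had a 95% interval of the difference that lay within 2-fold either way on the log2(value + 50) scale. An interval within 1.5-fold was reached by 3150 (81.7%). Only 7 probe sets differed by 2-fold or more in mean intensity without being called. For probe sets above the floor, changes of 2-fold were thus within reach of these 8 arrays. The added 50 shrinks the change of dim probe sets on this scale, so these bounds are tighter than bounds on intensity itself would be.

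**Figure D1:**
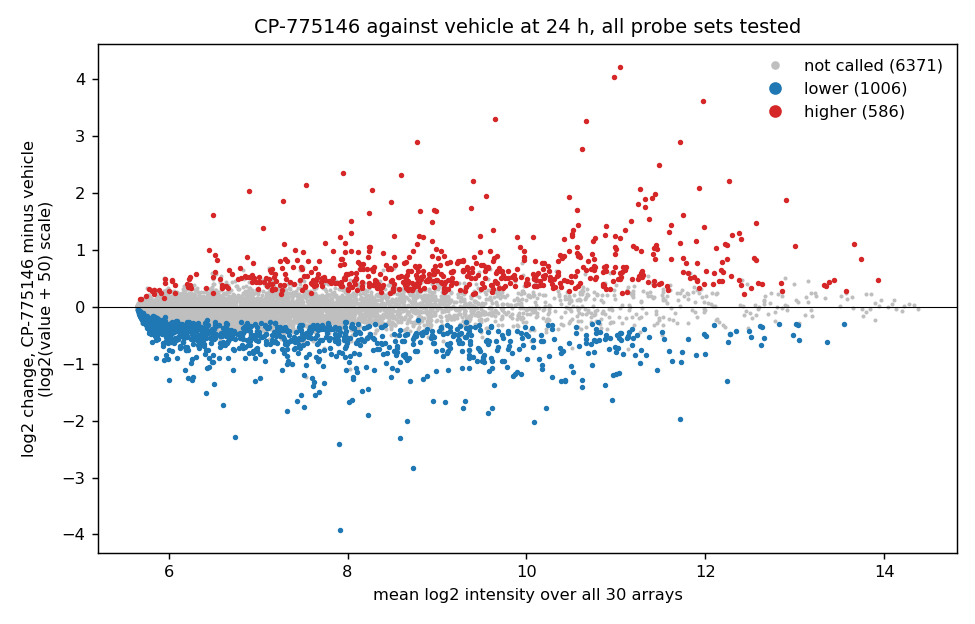
Change of each of the 7963 probe sets tested under CP-775146 at 24 h, as the log2 difference from vehicle on the log2(value + 50) scale, against its mean log2 intensity over all 30 arrays. Red points were called higher (586), blue points called lower (1006) and grey points not called; the largest rise is 4.22 and the largest fall -3.92. The position along the mean axis includes the treated arrays, so a strong rise itself moves a probe set to the right.

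The 2 probe sets with the largest rise and the 2 with the largest fall, among those called, above the floor on all 8 arrays and without overlap between the groups, are given by array. They were picked by this contrast, so their size at 24 h is a description. The probe set 103581_AT read 244, 207, 231 and 147 on the vehicle arrays and 4584, 4611, 4519 and 5011 on the CP-775146 arrays. Every treated liver was thus far above every control, and the treated livers differed little among themselves. The rise in the means was 22.6-fold, with a log2 difference of 4.22 (95% interval 3.96 to 4.47, limma adjusted p = 2.47e-19). It was the highest of all 7963 log2 differences.

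The probe set 97316_AT read 267, 216, 274 and 187 under vehicle and 4551, 4474, 5107 and 4423 under CP-775146. Again every treated liver was far above every control, with a 19.7-fold rise and a log2 difference of 4.04 (95% interval 3.81 to 4.28, limma adjusted p = 2.26e-19). The next 8 rises by the same rule were between 13.6-fold and 5.84-fold. They started from vehicle means between 69.75 and 863.2 and ended between 558.8 and 8355.

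The probe set 94795_AT read 2100, 2258, 2355 and 3133 under vehicle and 157, 167, 82 and 73 under CP-775146. This transcript was well expressed in control liver and came close to the floor in every treated one. The fall was 20.6-fold in the means, with a log2 difference of -3.92 (95% interval -4.37 to -3.47, limma adjusted p = 4.07e-13), the lowest of all 7963. The probe set 95043_AT read 1975, 1971, 1640 and 3073 under vehicle and 329, 269, 192 and 235 under CP-775146, an 8.45-fold fall with a log2 difference of -2.83 (95% interval -3.31 to -2.36, limma adjusted p = 6.1e-10). Vehicle replicate 4 was the highest array in both falling probe sets and the lowest in both rising ones. Without it 94795_AT and 95043_AT kept their calls, as all 4 traced probe sets did in each of the 36 alternatives run. After these, the falls thinned out faster than the rises did, though a fall is bounded by the floor and a rise is not. The next 8 ran from 6.4-fold to 3.81-fold, and the brightest of them went from a vehicle mean of 9943 to 2506.

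**Figure D2:**
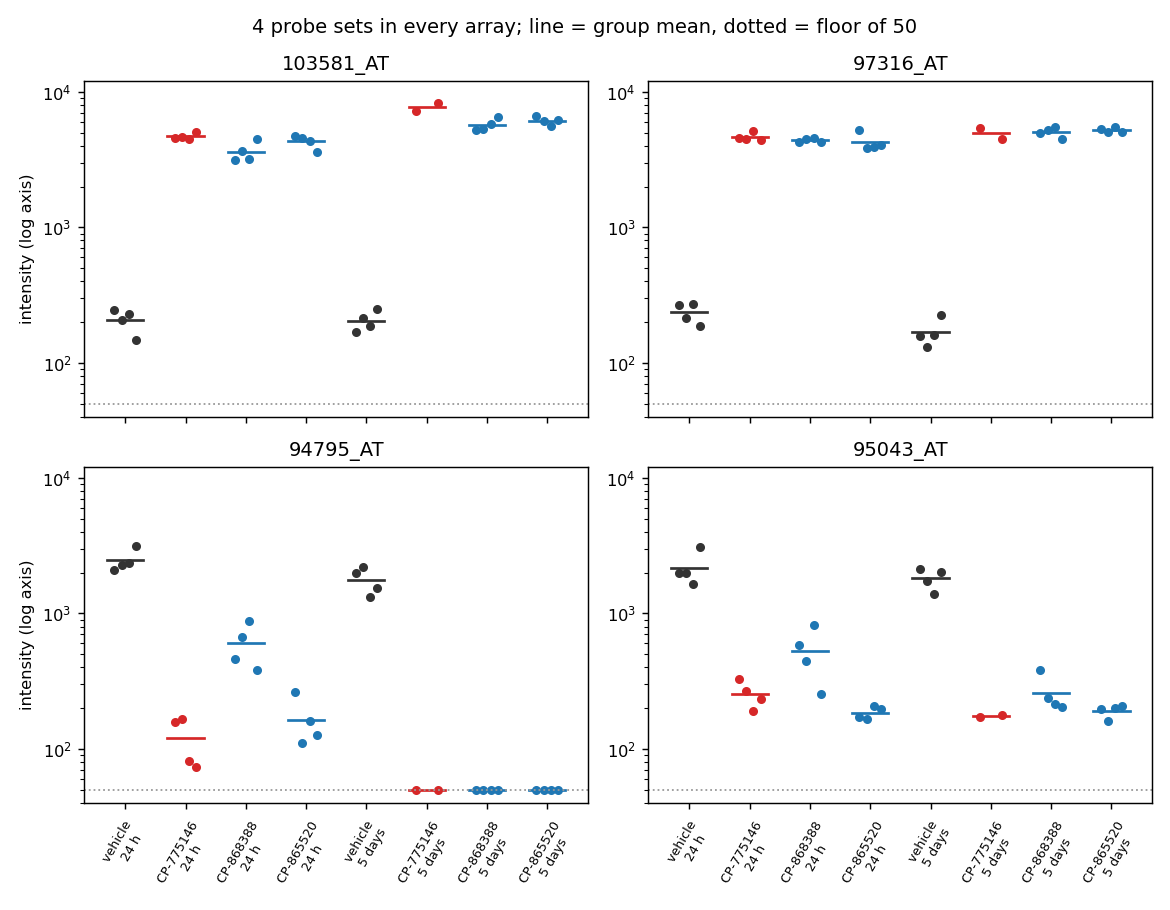
Intensity of the 4 traced probe sets on every array of the series (log axis), with a line at each group mean and a dotted line at the floor of 50. Under CP-775146 at 24 h (red) 103581_AT and 97316_AT sit at or above 4423 on all 4 arrays against at most 274 under vehicle, and 94795_AT and 95043_AT sit at or below 329 against at least 1640.

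Both directions were called more often among brighter probe sets. Brightness was taken from the 4 vehicle arrays at 5 days, which have no part in the 24 h difference, so that the change itself could not set the bin. They do enter the filter and the shared estimate of spread behind the calls. Of the 2442 probe sets tested whose mean on those arrays lay under 75, 56 were called higher (2.29%) and 211 lower (8.64%). Between 400 and 800 the calls were 115 higher (16.7%) and 114 lower (16.5%) of 690. Of the 187 probe sets above 3200, 25 were called higher (13.4%) and 51 lower (27.3%). Falls thus outnumbered rises at both ends of the range, and the directions were nearly even between 400 and 1600. The median brightness on those arrays was 362.1 for rising probe sets, 185.6 for falling ones and 127 for all tested.

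The split on the bright side turned with the way brightness was taken. With bins of the mean over all 30 arrays, most of them from treated mice, the calls above 3200 were 65 higher and 31 lower. In such bins a rise lifts a probe set into a brighter bin and a fall lowers it, so no direction is read from them. The binning on vehicle arrays was added after the data were seen.

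The split on the dim side moved with the scaling of the arrays. Quantile normalization, which gives all arrays 1 distribution, left 86 higher and 131 lower calls under 75 in the vehicle bins, and 144 higher and 124 lower between 100 and 200, where the deposited scaling gave 111 and 199. Above 3200 falls still led, at 54 against 33, and centring each array on its probe sets above the floor gave 47 against 25. Over all probe sets the split after quantile normalization was 673 higher and 785 lower, or 53.8% lower in place of 63.2%. Centring gave 664 higher and 812 lower. The excess of falls over all probe sets was therefore smaller under both other scalings. Called in 1 direction under all 3 scalings were 554 rising and 702 falling probe sets, among them all 123 rises and 151 of the 155 falls of at least 2-fold.

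**Figure D3:**
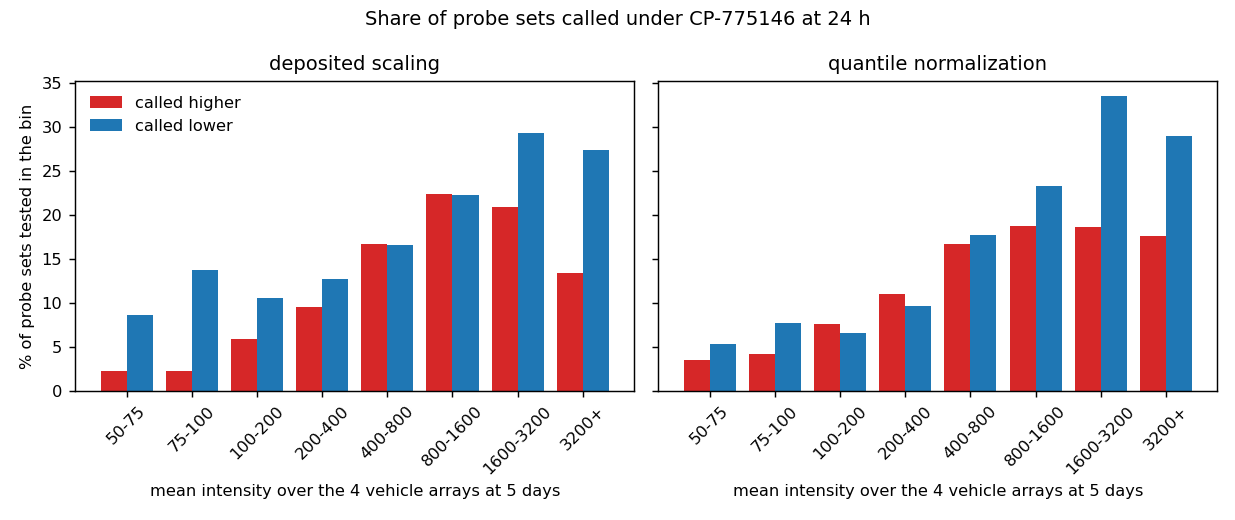
Percent of the probe sets tested that were called higher (red) or lower (blue) under CP-775146 at 24 h, in bins of mean intensity over the 4 vehicle arrays at 5 days, with the deposited scaling on the left and after quantile normalization on the right. Rises peak at 22.4% between 800 and 1600 as deposited, and falls reach 29.3% between 1600 and 3200.

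The arrays share nearly the same mean, so gains and losses of signal can be set against each other. The rising probe sets gained intensity equal to 9.59% of the mean vehicle total, and the falling ones lost 8.71%. The rising sets held 12.6% of all signal under vehicle and 22.1% under CP-775146, and the falling sets went from 21.9% to 13.1%. The near balance of gain and loss is set by the common mean and is no result. The gain was spread over many transcripts, with 17.5% of it in the top 10 probe sets and 65.5% in the top 100. Of the loss, 13.9% was in the top 10 and 59.7% in the top 100. These are out of 1006 falling probe sets against 586 rising ones, so the spread of gain and loss is not compared. The largest single gain was from a mean of 3304 to 12227, a 3.7-fold rise in an already bright probe set. The largest single loss was from 9943.2 to 2505.8, or 3.97-fold. Both of these singled-out probe sets were chosen after their values were seen. The rise that moved the most signal was thus not the one with the largest fold. A large fold and a large gain could still go together, as in a 10.2-fold rise from 818 to 8355.

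Few transcripts crossed the floor completely. At the floor on all 4 vehicle arrays and above it on all 4 CP-775146 arrays were 21 probe sets, and 40 did the reverse. The 40 became 64 without CP-775146 replicate 4 and 74 without vehicle replicate 2, since fewer arrays then have to meet the rule. A fold against the floor is a lower bound. The brightest of the 21 read 787, 708, 584 and 703 under CP-775146, at least 13.9-fold above the floor. The next ones had means of 400.75 and 362.5, at least 8.02-fold and 7.25-fold up. These 3 form a separate upper group, since the fourth had a mean of 152.75 and the median of the 21 was 88. Of the 21, 7 had a mean of at least 100 and 9 had a mean under 75. The limma test called 15 of them, against 20% of all tested. The same arrays picked the 21, so this count is no support.

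The 40 probe sets that reached the floor were dimmer. Their vehicle means had a median of 66.38, and 29 lay under 75. The highest mean, 287.8, rested mostly on 1 liver, with vehicle values of 70, 85, 212 and 784. The next one was more even at 154, 217, 164 and 136, at least 3.36-fold above the floor. Switching off was thus nearly always a loss of a signal that was already faint, and 34 of the 40 were called. Over all calls, 18 of the rises (3.07%) and 76 of the falls (7.55%) had every array of the other group at the floor. Such a group has no spread, so small differences near the floor could pass the test. Counted more loosely, 639 probe sets were above the floor on more CP-775146 than vehicle arrays and 1261 on fewer. These floor counts use the deposited values, in which fewer probe sets stood above the floor on the CP-775146 arrays (mean 6115 against 6388). The excess of losses at the floor is therefore not separate from that difference between the arrays.

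The floor pattern was also read on arrays that had no part in choosing it. Of the 21 probe sets, 18 were at the floor on all 4 vehicle arrays at 5 days, and 12 were above the floor on both arrays of CP-775146 at 5 days. Over all 5303 probe sets at the floor in 24 h vehicle liver, 1.87% were above it on both of those treated arrays. Of the 40, 36 were at the floor on both CP-775146 arrays at 5 days, where 7.85% of the 5644 probe sets above the floor in 24 h vehicle liver were. The 5644 were not matched in brightness to the 40, whose vehicle means had a median of 66.38. A recurring response is therefore not read from these shares. In 5-day vehicle liver, 12 of the 40 were above the floor on all 4 arrays and 4 were at the floor on all 4. Several of the 40 thus lay near the floor even in control liver. For 5-day vehicle liver no share over all probe sets is given, so the counts on those arrays are not read as a pattern. At 24 h the 21 were above the floor on all 4 arrays in 9 cases under CP-868388 and in 14 under CP-865520. The 40 were at the floor on all 4 in 28 and 19 cases. Shares over all probe sets are not given here for these compounds, so their counts are not compared. Means of 5835 and 6434 non-control probe sets stood above the floor under CP-868388 and CP-865520 at 24 h, against 6388 under vehicle.

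**Figure D4:**
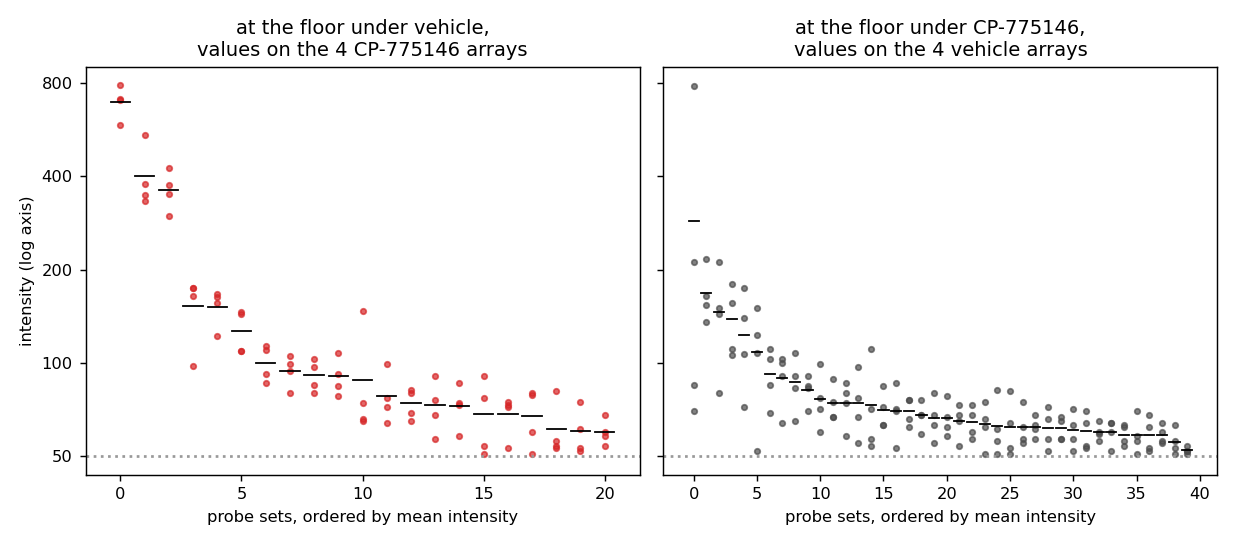
Intensity by array (log axis, dotted line at the floor of 50) of the 21 probe sets at the floor on all vehicle arrays (left, values on the 4 CP-775146 arrays) and of the 40 at the floor on all CP-775146 arrays (right, values on the 4 vehicle arrays), ordered by mean (black bars). Only 3 probe sets on the left have means above 200, and most on the right lie under 75.

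The share called was counted by type of probe set. Affymetrix marks with a letter those probe sets that relax its design rules. Of 6346 tested without such a letter 20.8% were called, against 8.62% of 429 marked R (some selection rules dropped) and 26.6% of 241 marked S (probes shared by similar transcripts). The F class, for sequence families, stood at 18.1% of 678. In each class except S, more were called lower than higher, and in S the numbers were 33 higher and 31 lower. The classes also differed in brightness, with a median intensity of 112.4 in R and 150.5 in S, and the shares are given with no test.

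Control probe sets that carry a mouse gene's name were tested in the same model. Pyruvate carboxylase feeds oxaloacetate into gluconeogenesis and the citric acid cycle. Its 3' control probe set, AFFX-PYRUCARBMUR/L09192_3_AT, read 924, 1152, 1010 and 890 under vehicle and 1268, 1341, 1310 and 1446 under CP-775146, so the groups did not overlap. The log2 difference was 0.42 (95% interval 0.18 to 0.66, limma adjusted p = 0.0105), and it passed in all 36 alternatives. The other 3 control probe sets for this transcript gave 0.17 to 0.19 and did not pass (limma adjusted p = 0.577 to 0.839), so the rise rests on the 3' end. The probe set whose ID reads MURFAS, to which no gene is assigned here, read 61, 52, 67 and 70 under vehicle and 148, 127, 136 and 132 under CP-775146. It rose by 0.73 on the log2 scale (AFFX-MURFAS_AT, limma adjusted p = 0.000185).

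No other 3' control of the named mouse genes passed the test. For Gapdh, a glycolytic enzyme, the 3' control probe set AFFX-GAPDHMUR/M32599_3_AT lay between 6874 and 6955 under vehicle and between 6566 and 7264 under CP-775146, with a log2 difference of 0.01 (95% interval -0.34 to 0.37). For beta-actin, a cytoskeletal protein, AFFX-B-ACTINMUR/M12481_3_AT read 8048, 7347, 6606 and 7652 under vehicle and 5683, 6513, 6479 and 6310 under CP-775146. These did not overlap, but the difference of -0.24 did not pass (AFFX-B-ACTINMUR/M12481_3_AT, limma adjusted p = 0.448), and its 95% interval ran from -0.63 to 0.14. The 5' beta-actin control gave -0.42 and did not pass either (AFFX-B-ACTINMUR/M12481_5_AT, limma adjusted p = 0.389). The 3' 18S ribosomal RNA control, AFFX-18SRNAMUR/X00686_3_AT, stood at 233.5 ± 78.1 against 375.8 ± 86.8 (SD, n = 4 each; log2 -0.60, 95% interval -1.26 to 0.05, limma adjusted p = 0.217). The 3' transferrin receptor control, AFFX-TRANSRECMUR/X57349_3_AT, was at most 65 on any of the 8 arrays, and its other 2 controls were at the floor.

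The other compounds given at the same dose and time serve as reference, and CP-775146 was set against each directly, so the vehicle arrays cancel. Against CP-865520, the test called 8 of 7963 probe sets (0.1%), each lower with CP-775146. None of these was among the 1592 calls against vehicle. For 1410 of those 1592 (88.6%) the 95% interval of the difference between the compounds lay within 1.5-fold, and for 1580 (99.2%) within 2-fold, on the log2(value + 50) scale. Over all probe sets tested the shares were 87.1% and 98.9%, so these bounds are not particular to the transcripts that CP-775146 moved. The intervals limit how far the compounds can differ, and do not show that they act alike. The count of 8 ranged from 0 to 41 when single arrays were left out. It was 0 without any 1 of CP-775146 replicates 1 to 3, CP-865520 replicates 2 and 4, vehicle replicates 1 and 2 and CP-868388 replicate 4 at 24 h, and 2 without CP-775146 replicate 4. At 5 days, CP-775146 replicates 1 and 2 and vehicle replicate 2 had the same effect of 0 calls when left out. It was 5 without vehicle replicate 3, 26 without vehicle replicate 4 and 41 without CP-865520 replicate 1 at 24 h. Without vehicle replicate 1, 3 or 4 at 5 days it was 31, 26 or 23.

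Against CP-868388, the test called 1304 probe sets (16.4%). CP-775146 was the higher of the compounds in 891 (11.2%) and the lower in 413 (5.19%). Of the 586 rises against vehicle 203 were called in this contrast, 97 higher and 106 lower with CP-775146 than with CP-868388. Of the 1006 falls 192 were called, 151 higher and 41 lower with CP-775146. Leaving out CP-868388 replicate 3 gave 462 calls and leaving out replicate 1 gave 846. Among the CP-775146 arrays, leaving out replicate 2, 3 or 4 gave 821, 738 or 824. The CP-868388 arrays had lower 5'/3' ratios (Gapdh -0.36 ± 0.23, SD, n = 4, against 0.03 ± 0.07 under CP-775146). With the ratios as a covariate there were 6 calls, and there were 38 without the 3 arrays of lowest Gapdh ratio, which are CP-865520 replicate 4 and replicates 1 and 3 of CP-868388. The ratios did not overlap between CP-868388 and CP-775146, so the covariate largely follows the groups. The removal leaves fewer CP-868388 arrays. Both weaken the test, and the part of RNA integrity in the lower counts was not tested. The probe set 94795_AT differed in all of the 35 alternatives run. It read 464, 670, 884 and 385 under CP-868388, each above every CP-775146 array, and the difference was -1.92 (95% interval -2.37 to -1.47, limma adjusted p = 1.35e-05). It was -1.94 with the covariate (limma adjusted p = 0.0018) and -1.77 without the 3 arrays (adjusted p = 0.00171). Under CP-865520 it stood at 164.5 ± 68.3, close to CP-775146 (119.8 ± 49.1), with a difference of -0.34 (95% interval -0.79 to 0.12).

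Of the 3 other traced probe sets, 97316_AT did not pass against CP-868388 (0.08, 95% interval -0.16 to 0.31, limma adjusted p = 0.781). The differences of 0.38 in 103581_AT and -0.83 in 95043_AT passed (limma adjusted p = 0.0351 and 0.016). Both calls were lost with the covariate (0.20 and -0.52) and without the 3 arrays (0.21 and -0.36). The 3' pyruvate carboxylase control exceeded its level under CP-868388 by 0.49 (AFFX-PYRUCARBMUR/L09192_3_AT, limma adjusted p = 0.00664), a call lost with the covariate (0.29) and without the 3 arrays (0.42).

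The 5-day groups have arrays of their own, in treatment and in vehicle, and show how far the early changes recurred. At 5 days CP-775146 changed 37.1% of all probe sets tested, with 12.3% called higher and 24.8% lower. Of the 586 that rose at 24 h, 451 (77%) were called higher at 5 days, which is 46% of the 5-day rises. Of the 1006 that fell, 679 (67.5%) were called lower, which is 34.3% of the 5-day falls. By value alone, 538 of the 586 lay above 0 at 5 days, where 29.8% of all tested did, and 938 of the 1006 lay below 0, where 66% did. Early rises thus recurred far above the background share, and early falls did so against a background that itself leaned downward. Of the 123 rises of at least 2-fold, 104 were called again, and of the 155 such falls, 139.

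Median log2 differences in the 586 rising sets were 0.55 at 24 h and 0.77 at 5 days, and in the 1006 falling sets -0.48 and -0.54. Over all probe sets tested the medians were -0.028 and -0.11, so the whole leaned further down at 5 days. The rising and falling sets were chosen on the 24 h arrays, which favours larger values there. The change between the times was itself called in 383 probe sets (4.81%), with a more positive value at 24 h in 2.64% and at 5 days in 2.17%. By their values, 240 of these moved the same way and further at 5 days, 24 moved the same way and less, and 119 had opposite signs. With 2 arrays at 5 days this count was fragile. At 5 days, leaving out CP-775146 replicate 2 gave 95 and leaving out replicate 1 gave 715. At 24 h, leaving out replicate 3 or 4 of the same compound gave 233 or 238. The 5-day count of 2958 was 1686 without CP-775146 replicate 2. The probe set 103581_AT rose further, from 22.6-fold to 37.7-fold (log2 change 24 h minus 5 days -0.72, limma adjusted p = 0.0305, lost in 10 of 34 alternatives). The probe set 94795_AT reached the floor on both 5-day arrays, at least 35.3-fold below its vehicle. Its change between the times did not pass (0.24, 95% interval -0.47 to 0.95, limma adjusted p = 0.724), and the floor limits what this contrast can show.

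**Figure D5:**
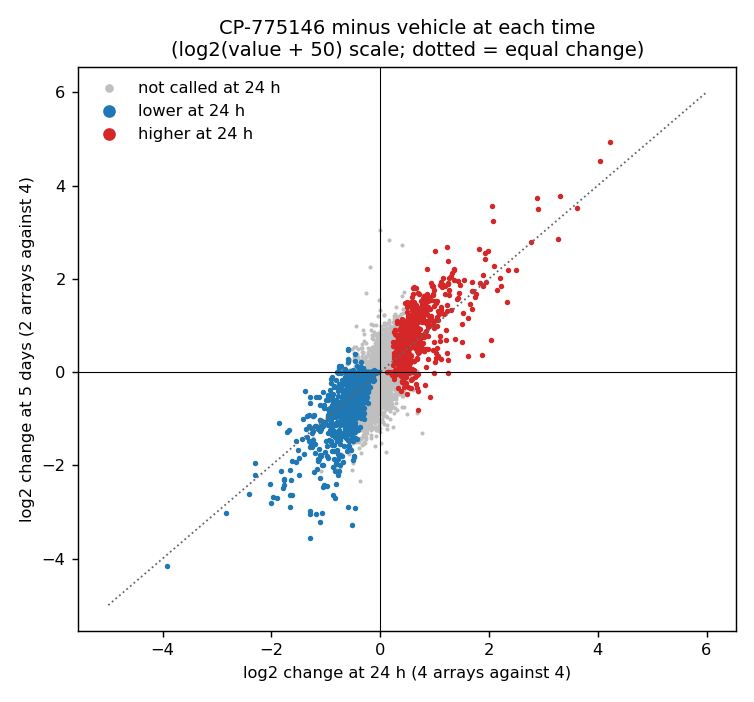
Log2 difference from vehicle under CP-775146 at 5 days (2 arrays against 4) against that at 24 h (4 against 4) on the log2(value + 50) scale, for the 7963 probe sets tested, with no array in common. Of the 586 red points 538 lie above 0 at 5 days, and of the 1006 blue points 938 lie below 0; the dotted line marks equal change.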

How the data were processed

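Labelled RNA from 30 livers was hybridised to 1 array each, and each array was placed in a group by its title. The deposited intensities are linear whole numbers made with MAS5, per the submitters' processing notes; the version, the scaling and the origin of the floor of 50 are not stated in the labels. The design text counts mice, so each array was taken as 1 mouse. No 2 arrays held identical values.

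Intensities were analysed as log2(value + 50), with no further normalization. Probe sets above 50 on at least 2 arrays were tested (7963); 66 control and 4459 dim probe sets were left out. Means of 8 groups were fitted with limma 3.58.1 in R 4.3.3 (eBayes with an intensity trend), with two-sided tests and Benjamini-Hochberg adjustment. Mouse control probe sets were added in a second fit. The code was tested on simulated data. Array measures were compared by exact permutation. Gene lists and gene-based naming rules could not be applied; in their place 2 rising and 2 falling probe sets are named by the rule given in the report. Members, lists and rules were chosen with earlier results of these data known. Alternatives were other pseudocounts, filters, scalings, sets of arrays, variance models, a replicate block and an RNA integrity covariate. The number of arrays limits the precision. Plots used matplotlib 3.10.9 in Python 3.11.15.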

Additional observations from a re-analysis of the deposited data

Results flagged for a closer look

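Differences between the response to CP-775146 at 24 h and that of another compound or time were tested as contrasts. They were called in 1304 probe sets against CP-868388, 8 against CP-865520 and 383 between 24 h and 5 days. Among the probe sets named here, the contrast with CP-868388 was called for 103581_AT at 0.379, for 94795_AT at -1.92 and for 95043_AT at -0.827. It was also called for the 3' control probe sets of Gapdh (AFFX-GAPDHMUR/M32599_3_AT, 0.559, limma adjusted p = 0.0286) and of pyruvate carboxylase (AFFX-PYRUCARBMUR/L09192_3_AT, 0.493). The contrast between the times was called for 103581_AT at -0.722, for Gapdh (AFFX-GAPDHMUR/M32599_3_AT) at 1.03 (limma adjusted p = 0.0303) and for pyruvate carboxylase (AFFX-PYRUCARBMUR/L09192_3_AT) at 0.622 (limma adjusted p = 0.0488). Of 35 alternatives, the contrast with CP-868388 kept its call in 35 for 94795_AT, 29 for 95043_AT, 22 for 103581_AT, 26 for Gapdh and 33 for pyruvate carboxylase. Of 34 alternatives, the contrast between times kept its call in 24 for 103581_AT, 27 for Gapdh and 14 for pyruvate carboxylase. No array of CP-775146 or vehicle at 24 h stood apart from its group in the 26 sets of values examined for this.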

How the results depend on the processing

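The count of probe sets changed by CP-775146 at 24 h stayed within 1.5 times of 1592 in every alternative. Leaving out single arrays gave 1235 to 1627 calls (489 to 606 higher, 746 to 1026 lower), and no call changed direction while remaining a call. The replicate numbers did not pair the arrays (correlations of deviations -0.086 to 0.049 between same-numbered arrays of CP-775146 and vehicle); with the replicate block 541 rose and 919 fell, the contrast between times had 214 calls in place of 383, and 103581_AT and Gapdh lost their calls in the contrasts with CP-868388 and between times, as pyruvate carboxylase did between times. The integrity covariate gave 6 calls against CP-868388 and 600 between times. Without the 3 arrays with a 3' bias, an alternative chosen after the data were seen (a log2 ratio under -0.4), there were 38 calls against CP-868388 and 0 against CP-865520. That removal takes arrays from both of these compounds, which weakens both contrasts. The count of 8 against CP-865520 was 0 with no filter, 17 with a stricter filter, 1 after quantile normalization, 0 after centring, 14 with only the 24 h groups and 32 without the intensity trend. Where limma called 0, the count at an unadjusted p under 0.05 ran from 761 to 1048. Leaving out single arrays gave 462 to 1592 calls against CP-868388, 0 to 41 against CP-865520, 95 to 715 between times and 1686 to 3085 at 5 days. Arrays of the reference groups were left out as an alternative chosen after the data were seen. Probe sets switched on from the floor numbered 97, and those switched off 276, when 3 of 4 arrays against at most 1 sufficed, and 84 were switched off when values up to 75 counted as the floor. Leaving out single arrays gave 23 to 30 on and 50 to 74 off. The difference in Gapdh (AFFX-GAPDHMUR/M32599_3_AT) ran from -0.00458, without CP-775146 replicate 3 at 24 h, to 0.0437 when single arrays were left out. Causes were not tested. Brightness limits what can be seen: probe sets near the floor have only a bound.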
